A study of Rattus norvegicus with 10 samples.

Results

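Adrenergic receptors are the cell surface receptors for noradrenaline, released by sympathetic nerves, and for circulating adrenaline. The alpha-1 receptors couple to Gq proteins, phospholipase C and calcium release, and their activation contracts arterial smooth muscle. The alpha-2 receptors couple to Gi and Go proteins, lower cyclic AMP and limit noradrenaline release from sympathetic endings. The beta receptors couple to Gs and raise cyclic AMP, which drives the heart through the beta-1 receptor and, in rodents, fat breakdown and heat production in adipocytes through the beta-3 receptor. Here 8 receptor genes were described: Adra1a, Adra1b, Adra1d, Adra2a, Adra2b, Adra2c, Adrb1 and Adrb3. They were taken by their annotated gene symbol whatever their values, though earlier results of these data were known when the receptors were chosen. Each was read by 1 probe set, so they were 8 of 10411 named genes and of 15866 probe sets other than controls.

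RNA from abdominal aorta was measured on Affymetrix 3′ arrays, 5 from BN and 5 from LOU rats. Both are inbred strains, neither group was treated, and sex is not given in the labels. The age given with every array is 5 weeks, while the growth notes allow rats up to 18 weeks old, and the extraction notes speak of thoracic aorta as well. Nothing in the labels ties the arrays to separate rats, so the p-values measure the spread between arrays and no more.

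Smooth muscle markers were present as the tissue label implies, 9 of 9 measured markers lying above background on all 10 arrays. Acta2, the actin of smooth muscle, had a signal of 11845 ± 1709 in BN and 11272 ± 1256 in LOU (SD, n = 5 each). Other cell types were also present, and some arrays stood apart. BN array 3 had a mean of 3.14 (log2, each gene centred over the 10 arrays) for markers of sympathetic neurons and chromaffin cells, against −0.80 to 0.14 on the other BN arrays and −1.33 to 0.75 on the LOU arrays. LOU array 1 had a macrophage marker mean of 1.08, against −0.31 to −0.067 on the BN arrays and −0.12 to 0.12 on the other LOU arrays. Ucp1, the uncoupling protein of brown adipocytes, was above background on all 10 arrays, at 1005.3 to 12344.6 on the BN arrays and 485 to 5451.2 on the LOU arrays. Each array carries RNA of all these cells, so fewer cells of a type and less RNA per cell cannot be told apart.

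The promoters of 6 of the 8 genes were listed in the RefSeq promoter table (GRCr8, an assembly of a BN rat), each as 250 bases before to 50 bases after the start. The 3 windows shown belong to the receptors with a listed promoter that could be read on all 10 arrays, and Adra1b among them is the receptor whose strains were most clearly apart. They are written 5′ to 3′ on the gene's strand, which is the minus strand for each, with the GC box GGGCGG or its reverse complement in capitals. They lie at chr10:28814298-28814597 (Adra1b), chr3:139262282-139262581 (Adra1d) and chr14:79697427-79697726 (Adra2c).
Adra1b: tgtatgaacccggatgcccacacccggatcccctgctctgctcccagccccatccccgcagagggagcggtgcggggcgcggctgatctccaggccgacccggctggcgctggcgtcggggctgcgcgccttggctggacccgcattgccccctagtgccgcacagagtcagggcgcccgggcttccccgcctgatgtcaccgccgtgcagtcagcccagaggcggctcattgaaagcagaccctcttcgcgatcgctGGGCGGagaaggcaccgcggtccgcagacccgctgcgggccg
Adra1d: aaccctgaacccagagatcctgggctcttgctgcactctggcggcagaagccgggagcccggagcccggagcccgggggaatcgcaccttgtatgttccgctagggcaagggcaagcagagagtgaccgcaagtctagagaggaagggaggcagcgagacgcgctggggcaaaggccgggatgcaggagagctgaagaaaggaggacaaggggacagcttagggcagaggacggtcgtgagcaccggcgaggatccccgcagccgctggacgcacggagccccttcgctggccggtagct
Adra2c: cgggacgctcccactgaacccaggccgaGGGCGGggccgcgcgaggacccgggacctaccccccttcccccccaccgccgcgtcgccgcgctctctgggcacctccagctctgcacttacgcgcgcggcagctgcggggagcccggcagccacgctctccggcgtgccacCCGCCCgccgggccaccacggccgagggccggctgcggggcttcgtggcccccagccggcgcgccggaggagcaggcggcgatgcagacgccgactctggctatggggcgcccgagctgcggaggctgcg
All 6 listed windows were rich in G and C, from 65.7% (Adra1d) to 79% (Adra2c), where the median over the 33469 promoters of the table was 51.7%. Adra1b had a GC content of 72% and 32 CpG dinucleotides, Adra1d had 22 and Adra2c had 43, and the median over all promoters was 7. A GC box on either strand was found in 3 of the 6 windows, once in Adra1b, 9 bases after the start, and 2 times each in Adra2b and Adra2c, and it is present in 33.1% of all promoters. TATAAA was in none of the 6 and in 14.2% of all promoters. CCAAT and the cyclic AMP responsive sequence TGACG each occurred once, both in Adrb1, and are present in 37.5% and 21.2% of all promoters. The E-box CANNTG occurred once in Adra2a and once in Adra2c and is present in 72.1%. These motifs were searched on both strands and share no bases with each other in these windows.

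A signal was taken as above background when it exceeded 95% of the 45 bacterial control signals on the same array, a level of 21.2 to 49.2. Adra1b, Adra1d, Adra2c and Adrb3 were above it on all 10 arrays. Adra1a was above it on 3 of 5 BN arrays and 4 of 5 LOU arrays, and Adra2a on 2 of 5 BN arrays and 4 of 5 LOU arrays. Adra2b and Adrb1 were above it on no BN array and on 1 LOU array each. In all, 55 of the 80 receptor signals were above background. Of all probe sets, 69.7% (BN array 1) to 81.9% (BN array 5) were above it on an array, so the receptors were not detected more often than probe sets at large. Of the 80 signals, 22 were above the highest bacterial control of their array, among them all 10 of Adrb3, 8 of Adra1d and 4 of Adra1b. The signal of a probe set also depends on its probes, so levels are compared between strains for each receptor and not between receptors.

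**Figure D1:**
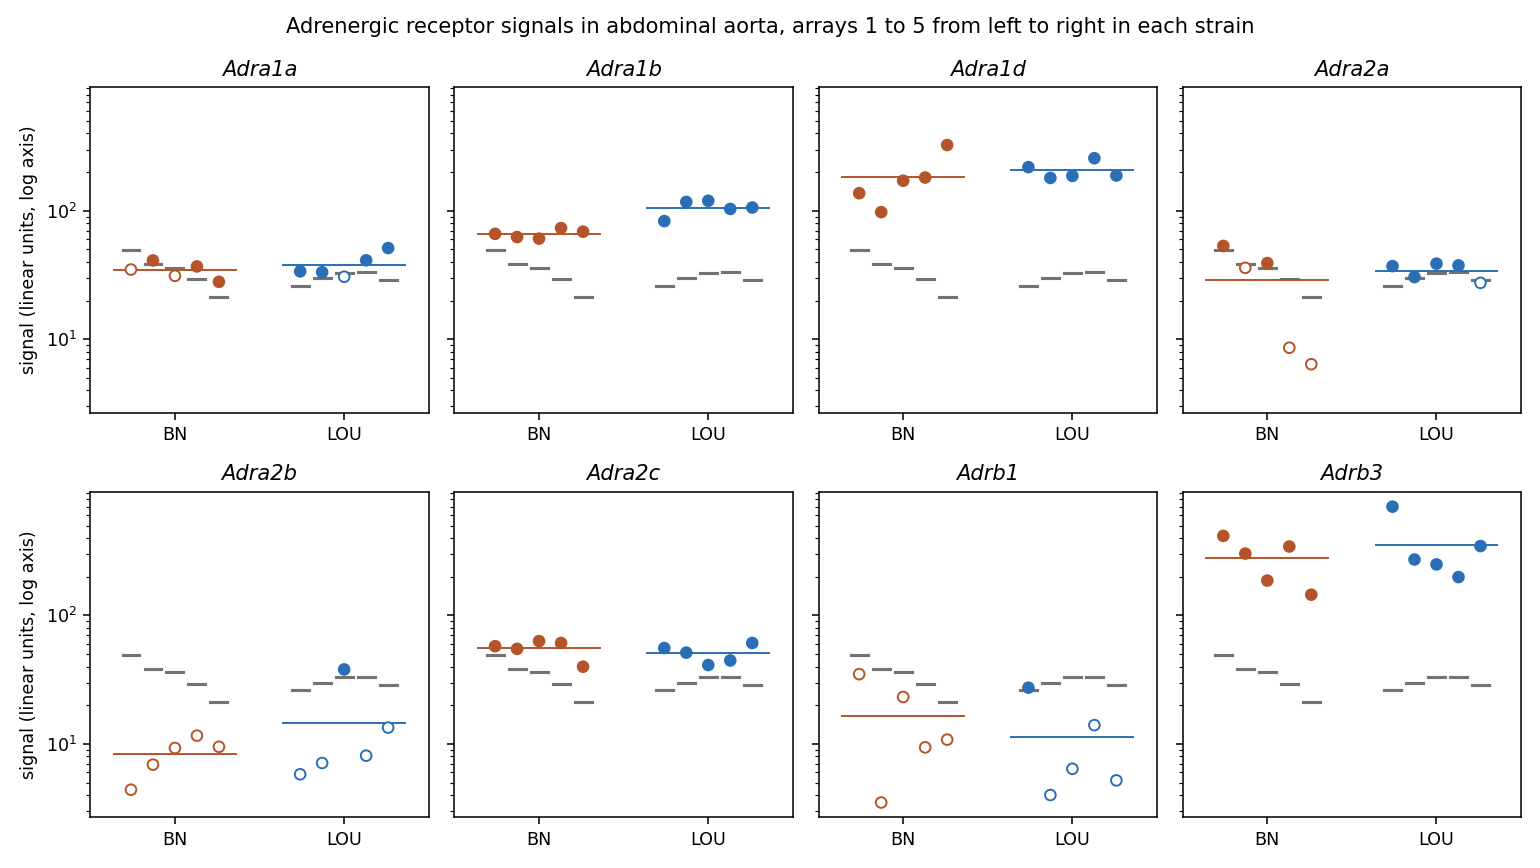
Signal of each receptor on every array (linear units on a log axis), with BN left and LOU right in each panel and arrays 1 to 5 from left to right. Filled points lie above the background level of their array, which is the grey tick, and open points do not. Horizontal lines are the strain means of the linear signal. The 5 BN points of Adra1b (60.8 to 73.4) lie below its 5 LOU points (83.2 to 119.7), and in the other 7 panels the strains overlap.

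The comparison of BN with LOU asked which receptor transcripts differ between the strains in the abdominal aorta. No receptor passed (limma, adjusted p below 0.05 over all probe sets, of which 0.788% were called), and 1 of the 8, Adra1b, had an unadjusted p below 0.05, as did 13.3% of all probe sets, so that the count over the receptors was close to the background. Adra1b was also the only receptor with all 5 BN signals below all 5 LOU signals, a pattern seen in 2.77% of probe sets. The log2 difference, BN minus LOU, was negative for 6 of the 8 receptors with a median of −0.29. Over all named genes 52.4% were negative and the median was −0.018. Of the 4 receptors above background on all 10 arrays, 3 had negative differences.

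Adra1b encodes the alpha-1B receptor, which contracts vascular smooth muscle. Its signals were 66.2, 62.5, 60.8, 73.4 and 68.8 on BN arrays 1 to 5, against 83.2, 117.3, 119.7, 103.4 and 106.1 on LOU arrays 1 to 5. The BN values lay close together, and the lowest LOU value, on array 1, was still above the highest BN value. The means were 66.3 ± 5.03 in BN and 105.9 ± 14.5 in LOU (SD, n = 5 each). The log2 difference was −0.67 (SE 0.13, 95% interval −0.96 to −0.38), which is 1.59-fold lower in BN, with a limma adjusted p of 0.0516. By size of p it was probe set 127 of 15866, and 125 passed, so it lay just outside the threshold. Fitted over 1 probe set per gene it passed, with an adjusted p of 0.0451, and over 22 alternatives the log2 difference kept its sign, at −0.75 to −0.56, and passed in 8. Among the 10 fits that left out 1 array, it passed in 1, the one without LOU array 1 (adjusted p = 0.0265). Every signal was 1.35 to 3.93 times the background level of its array.

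Some marker lists differed in the same direction as Adra1b. Of 7 adventitial fibroblast markers, 6 had negative differences and none passed the test, with a median of −0.53. Their summed signal was 18986 to 27996 on the BN arrays and 22259 to 32214 on the LOU arrays, and all 7 were above background on all 10 arrays. Pdgfra, a receptor for platelet-derived growth factor on fibroblasts, had a log2 difference of −0.80 (adjusted p = 0.178). Pi16 and Dpt, which encodes dermatopontin, were chosen after their values were seen and had −1.08 (adjusted p = 0.073) and −0.78 (adjusted p = 0.112), with strains that did not overlap. Both passed without the dimmest 40% of probe sets and with only probe sets above background in a strain, settings in which Adra1b also passed, and with a variance trend, in which it did not. These values are from the brightest probe set of each gene. Dpt has 1 other probe set, and the mean of its probe sets gave −0.44 (limma adjusted p = 0.311). All 6 macrophage markers were negative (median −0.35, none called), with a summed signal of 519.4 to 637.3 in BN and 598.6 to 1264.1 in LOU. The 1264.1 came from LOU array 1, which also had the lowest LOU signal of Adra1b. The other LOU arrays had 598.6 to 677.4, and without LOU array 1 the macrophage median was −0.18 with 1 of 6 positive. Smooth muscle markers ran the other way, with 8 of 9 positive, a median of 0.22 and a summed signal of 46915 to 68477 in BN and 42168 to 58489 in LOU. Across the 10 arrays, with signals centred within strain, Adra1b followed the adventitial fibroblast mean with r = 0.57 (exact permutation p = 0.178) and rho = 0.75 (exact permutation p = 0.0335). Adjusted over the 42 relations computed, these p-values were 0.435 and 0.266, and r was 0.69 without the pair of arrays farthest from the median (LOU arrays 2 and 5). Adra1b also gave r = −0.66 with the macrophage mean (exact permutation p = 0.195, adjusted 0.435), at 0.77 in BN alone and −0.84 in LOU alone. Without LOU arrays 1 and 5 r was 0.050. The remaining arrays were not centred again within strain, so that value can mix in an offset between strains. This holds for every r given without a pair of arrays. With markers of sympathetic neurons and chromaffin cells r was −0.58 (exact permutation p = 0.0394, adjusted 0.237), and −0.0056 without BN array 3 and LOU array 1. With skeletal muscle markers rho was 0.67 (exact permutation p = 0.0336, adjusted 0.266) and r was 0.50. The part of these cells in the difference of Adra1b was not tested.

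Adra1d encodes the alpha-1D receptor, a main mediator of noradrenaline contraction in the rat aorta. Its signals were 137.1, 97.7, 171.5, 181.6 and 325.1 on BN arrays 1 to 5, against 218.6, 180.3, 186.9, 256.7 and 188.2 on LOU arrays 1 to 5. The BN arrays held both the lowest and the highest value, a 3.33-fold range, and the LOU arrays spanned 1.42-fold within it. The means were 182.6 ± 86.2 in BN and 206.1 ± 31.9 in LOU (SD, n = 5 each). The log2 difference was −0.28 (SE 0.28, 95% interval −0.90 to 0.35, limma adjusted p = 0.711). It was −0.082 without BN array 2, the lowest, and −0.52 without BN array 5, the highest.

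Adra1a encodes the alpha-1A receptor, best known from resistance arteries and the smooth muscle of the lower urinary tract. Its signals were 34.9, 41.1, 31.2, 36.9 and 28 on BN arrays 1 to 5, against 33.8, 33.3, 30.7, 41.2 and 51.3 on LOU arrays 1 to 5. All 10 stood at 0.71 to 1.78 times the background level of their array, and the strains overlapped. The log2 difference was −0.13 (SE 0.17, 95% interval −0.51 to 0.25, limma adjusted p = 0.782).

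Adra2c encodes the alpha-2C receptor, found on sympathetic endings and, in arteries of the skin, on smooth muscle. Its signals were 57.6, 54.9, 63.1, 61 and 39.9 on BN arrays 1 to 5, against 55.7, 51.3, 41.1, 44.6 and 61 on LOU arrays 1 to 5. The strains covered nearly the same range, with means of 55.3 ± 9.16 in BN and 50.7 ± 8.07 in LOU (SD, n = 5 each). The log2 difference was 0.12 (SE 0.17, 95% interval −0.25 to 0.49, limma adjusted p = 0.796), the only positive one among the 4 receptors above background throughout. All values were 1.17 to 2.13 times background and none exceeded the highest bacterial control.

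Adra2a encodes the alpha-2A receptor, the main autoreceptor that restrains noradrenaline release. Its signals were 53.3, 36, 39.2, 8.6 and 6.4 on BN arrays 1 to 5, against 37.1, 30.5, 38.8, 37.6 and 27.5 on LOU arrays 1 to 5. BN arrays 4 and 5 were far below background, while the LOU values lay within 1.41-fold of each other. The log2 difference was −0.69 (SE 0.57, 95% interval −1.96 to 0.58, limma adjusted p = 0.645). With signals below 32 raised to 32 its sign turned, to 0.095.

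Adra2b encodes the alpha-2B receptor of vascular smooth muscle. Its signals were 4.4, 6.9, 9.3, 11.6 and 9.5 on BN arrays 1 to 5, against 5.8, 7.1, 38, 8.1 and 13.4 on LOU arrays 1 to 5. Only LOU array 3 was above background, and the log2 difference of −0.49 (SE 0.49, limma adjusted p = 0.708) compares values below background, so no fold is given. Adrb1 encodes the beta-1 receptor of the heart and its signals were 34.9, 3.5, 23.2, 9.4 and 10.8 on BN arrays 1 to 5, against 27.4, 4, 6.4, 14 and 5.2 on LOU arrays 1 to 5. Only LOU array 1 was above background, by a factor of 1.05, and the log2 difference was 0.50 (SE 0.69, limma adjusted p = 0.797). These probe sets give an upper bound on the signal of both receptors and not a level.

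Adrb3 encodes the beta-3 receptor of adipocytes. Its signals were 415.7, 302.7, 186.7, 343.7 and 145 on BN arrays 1 to 5, against 702.1, 272.3, 249.4, 198.8 and 346.6 on LOU arrays 1 to 5. LOU array 1 was the highest and BN array 5 the lowest, with a range of 2.87-fold within BN, 3.53-fold within LOU and 4.84-fold over all arrays. The means were 278.8 ± 112 in BN and 353.8 ± 202 in LOU (SD, n = 5 each). The log2 difference was −0.30 (SE 0.39, 95% interval −1.16 to 0.56, limma adjusted p = 0.782). It was −0.013 without LOU array 1 and 0.11 without that array and BN array 3 together. All 10 signals were 5.19 to 26.8 times the background level of their array.

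**Figure D2:**
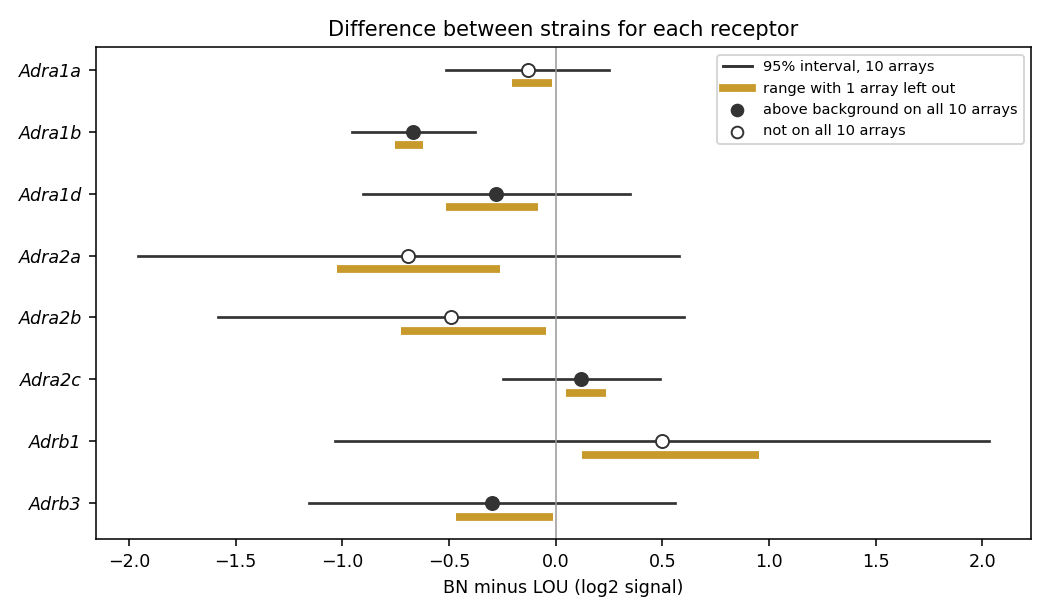
BN minus LOU difference in log2 signal for each receptor (points) with its 95% interval from limma over 10 arrays (black lines). Yellow bars span the differences obtained when each array was left out in turn, and filled points mark receptors above background on all 10 arrays. The interval of Adra1b (−0.96 to −0.38) lies below 0, and the other 7 intervals include 0.

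Variation within a strain differed between receptors. The coefficient of variation of Adra1b was 7.59% in BN and 13.7% in LOU, and that of Adra2c was 16.6% in BN and 15.9% in LOU. Adra1d reached 47.2% in BN and 15.5% in LOU, and Adrb3 reached 40.1% in BN and 57% in LOU. The spread of Adrb3 was set beside the marker means of each array. The mean of 7 measured adipocyte markers (log2, centred over the 10 arrays) was 0.45, 0.73, −0.38, 0.32 and −1.05 on BN arrays 1 to 5, against 0.83, 0.38, −0.63, −0.68 and 0.026 on LOU arrays 1 to 5. Of these 7 markers, 6 were above background on all 10 arrays, and Lep, which encodes leptin, was above it on none. Their summed signal was 2055 to 10347 in BN and 3460 to 13486 in LOU. Within strain, Adrb3 varied with this mean (r = 0.88, exact permutation p = 0.00264, n = 10), with r = 0.91 in BN alone and 0.85 in LOU alone. The rank correlation was 0.90 (exact permutation p = 0.00188), and r was 0.78 without BN array 5 and LOU array 4, which were farthest from the median. Adjusted over the 42 relations, the p-values were 0.106 for r and 0.0788 for the rank correlation, so neither passed. Adrb3 also varied with the macrophage marker mean, at r = 0.74 (exact permutation p = 0.0219, adjusted 0.23) and rho = 0.67 (exact permutation p = 0.0192, adjusted 0.266). That r was 0.73 without LOU arrays 1 and 5, 0.77 in BN alone and 0.89 in LOU alone. LOU array 1 had a macrophage mean of 1.08 and the highest Adrb3 signal, 702.1, and the other LOU arrays had macrophage means of −0.12 to 0.12. LOU array 5 had the lowest of these and an Adrb3 signal of 346.6, so the pair left out also held an array that ran against the relation. An r without LOU array 1 alone was not computed.

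The brown adipocyte markers gave a like picture for Adrb3, and the opposite one for Adra1d. The mean of 8 markers was 1.77, 1.92, 0.14, 0.49 and −1.40 on BN arrays 1 to 5, against 0.33, −0.087, −1.48, −1.78 and 0.10 on LOU arrays 1 to 5, with a summed signal of 2427 to 21980 in BN and 1425 to 11710 in LOU. Of the 8, 4 were above background on all 10 arrays. Adrb3 correlated with it at r = 0.81 (exact permutation p = 0.00549, adjusted 0.106) and rho = 0.84 (exact permutation p = 0.00701, adjusted 0.147), and at r = 0.65 without BN array 5 and LOU array 4. Adra1d correlated negatively, at r = −0.82 (exact permutation p = 0.00757, adjusted 0.106) and rho = −0.75 (exact permutation p = 0.038, adjusted 0.266). Its r was −0.54 without the same pair of arrays, −0.96 in BN alone and −0.44 in LOU alone. The lowest Adra1d signal, 97.7, was on BN array 2, where Ucp1 was at 12344.6, and the highest, 325.1, on BN array 5, where Ucp1 was at 1005.3. Over the 6 pairs of receptors above background throughout, r ran from −0.51 (Adra1d and Adra2c) to 0.61 (Adra2c and Adrb3), with adjusted exact permutation p-values of 0.311 or more. Adra2c had r = 0.72 with brown adipocyte markers (exact permutation p = 0.031, adjusted 0.237), and 0.36 without BN array 5 and LOU array 4. None of the 42 relations passed after adjustment, and 8 had an unadjusted p below 0.05 for r. The part of fat cells and macrophages in the receptor signals was not tested.

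**Figure D3:**
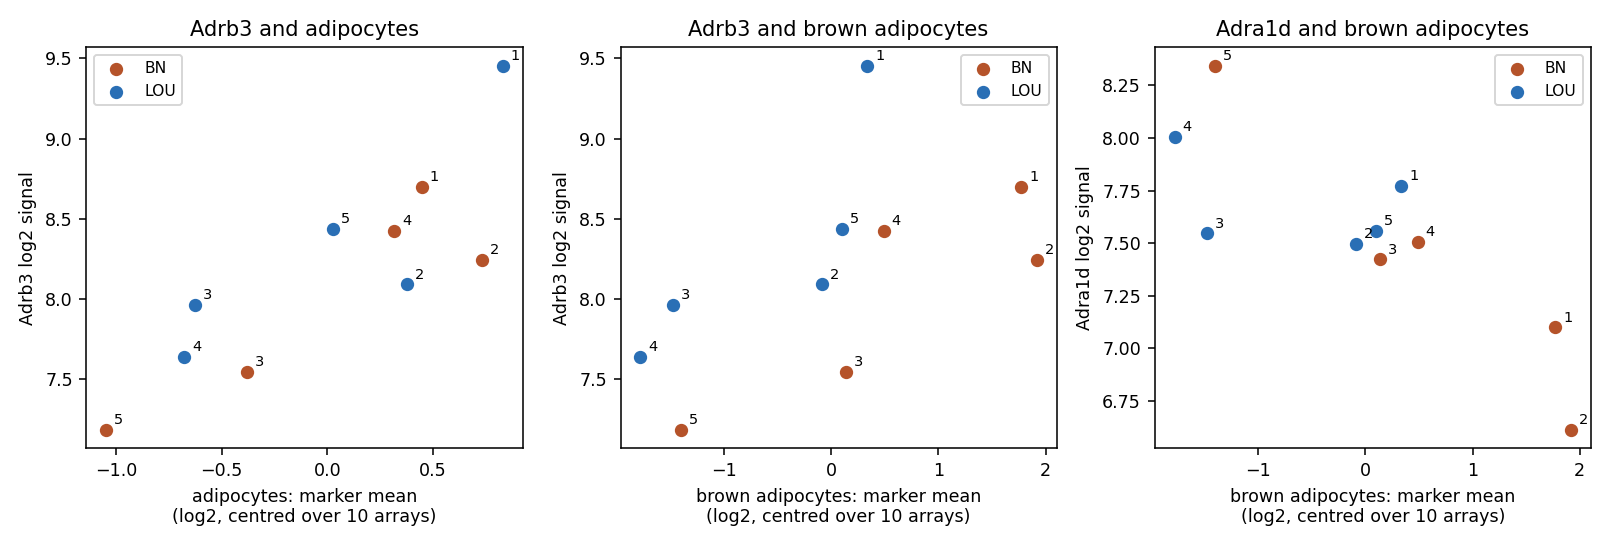
Log2 signal of Adrb3 against the adipocyte marker mean (left) and the brown adipocyte marker mean (middle), and log2 signal of Adra1d against the brown adipocyte marker mean (right), with 1 point per array, BN in brown and LOU in blue, numbered by array. Marker means are log2 signals centred over the 10 arrays. Adrb3 is higher on arrays with higher fat marker means (r = 0.88 and 0.81, within strain), and Adra1d is lower on arrays with higher brown fat marker means (r = −0.82).

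The genes whose signals varied most like those of each receptor within strain, over the 10 arrays and among 7369 genes above background on all arrays, differed between receptors. For Adrb3 they were Dld (r = 0.98), Ptgr3 (0.97), Pdha1 (0.97), Ncoa4 (0.96) and Sdha (0.96). Dld and Pdha1 encode subunits of the pyruvate dehydrogenase complex and Sdha a subunit of succinate dehydrogenase, all mitochondrial enzymes. Dld signals were 1031.8, 897.4, 586.4, 816.2 and 437.7 on BN arrays 1 to 5, against 1197.3, 645.6, 522.2, 421.6 and 678 on LOU arrays 1 to 5, highest on LOU array 1, as for Adrb3, and lowest on LOU array 4 and BN array 5. For Adra1d the closest were Stx4 (r = 0.96), Ccnh (0.94), Sos2 (0.94), Tmf1 (0.94) and Upf2 (0.93). Stx4 encodes a syntaxin of vesicle fusion at the plasma membrane. For Adra1b they were Bace2 (r = 0.93), Rbms2 (0.93), Lmf2 (0.92), Prpf19 (0.91) and Entrep1 (0.91), and for Adra2c they were Nrg1 (r = 0.93), Coq6 (0.92), Ndufs4 (0.92), Slc25a22 (0.91) and Mtfp1 (0.91). Nrg1 encodes the growth factor neuregulin. These values are the top of many and are given as a description.

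Around the receptors, 91 of 109 listed genes of adrenergic signalling were measured. By the brightest probe set of each gene, 1 was higher in BN and none was lower, where over all named genes 0.24% were higher and 0.48% were lower in BN. With limma, 10 of the 91 had an unadjusted p below 0.05, close to the 13.2% of all named genes that did. Differences were positive for 57 and negative for 34, with a median of 0.091.

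Upstream of the receptors, the gene that passed was Slc22a2, an organic cation transporter that carries catecholamines among other substrates. Its signals were 154.4, 135, 117.1, 199.3 and 236.5 on BN arrays 1 to 5, against 49.9, 54.1, 75.3, 62.2 and 36.4 on LOU arrays 1 to 5. The strains did not overlap, and the means were 168.5 ± 48.8 in BN and 55.6 ± 14.4 in LOU (SD, n = 5 each). It was 3.02-fold higher in BN (log2 1.59, SE 0.24, limma adjusted p = 0.0167), and without LOU array 2 the adjusted p was 0.0529. Of 15 measured genes of catecholamine synthesis, storage, uptake and breakdown, 14 had positive differences with a median of 0.42, and 1 passed. Without BN array 3, 10 of 15 were positive and the median was 0.18. That array gave a signal of 2608.4 for Th, tyrosine hydroxylase, which makes the catecholamine precursor, against 84.2 to 131 on the other BN arrays and 42.6 to 366 on the LOU arrays. Dbh, dopamine beta-hydroxylase, which makes noradrenaline, was at 3145.7 there, against 10.6 to 115.4 on the other BN arrays and 8.6 to 286.4 on the LOU arrays. Cyb561, the cytochrome that supplies electrons to Dbh, had a log2 difference of 0.97 (adjusted p = 0.577), and 0.28 without BN array 3. Maob, a monoamine oxidase, had 0.35 (adjusted p = 0.301), and Slc22a3, another organic cation transporter, 0.57 (adjusted p = 0.405).

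Downstream of alpha-1 receptors, none of 16 measured genes of the Gq and phospholipase C arm passed. Of these 7 were positive and 9 negative, with a median of −0.030. Itpr3, an inositol trisphosphate receptor that releases calcium, had 112.4 ± 25.3 in BN and 73.9 ± 10.8 in LOU (SD, n = 5 each), a log2 difference of 0.59 with a limma adjusted p of 0.189. The protein kinase C genes Prkcq and Prkce had differences of 0.46 (adjusted p = 0.403) and 0.20 (adjusted p = 0.545), and Plcb1, a phospholipase C, had −0.20 (adjusted p = 0.664). Downstream of alpha-2 receptors, the 4 measured Gi and Go alpha subunits were split, with a median of 0.00026, and none passed. Gnaz had a difference of 0.63 (adjusted p = 0.262) and Gnao1 of 0.30 (adjusted p = 0.68), while Gnai1 had −0.41 (adjusted p = 0.369) and Gnai2 −0.30 (adjusted p = 0.37). Another probe set of Gnaz had a difference of 0.033 with no BN array above background.

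Downstream of beta receptors, none of 25 measured genes of the Gs and cyclic AMP arm passed. Of these 15 were positive and 10 negative, with a median of 0.069. Prkar2a, a regulatory subunit of the cyclic AMP dependent protein kinase, had signals of 497.9, 445.5, 523.3, 526.3 and 415 on BN arrays 1 to 5, against 316.3, 410, 264.8, 278.6 and 361 on LOU arrays 1 to 5. The strains did not overlap (log2 0.58, limma adjusted p = 0.13), and its other probe sets had differences of 0.39 and 0.047. Crem, a cyclic AMP responsive transcription factor, had 142.3 ± 26.8 in BN and 74.8 ± 63.1 in LOU (SD, n = 5 each), a log2 difference of 1.24 with a limma adjusted p of 0.256, and passed without LOU array 4 (log2 1.65, adjusted p = 0.0463). Its other probe sets, near background, had 0.47 and −0.70. Pde4b, a cyclic AMP phosphodiesterase, had −0.60 (adjusted p = 0.353), and −0.52 in its other probe set. Rapgef4, a cyclic AMP sensor, was above background on no array of either strain.

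**Figure D4:**
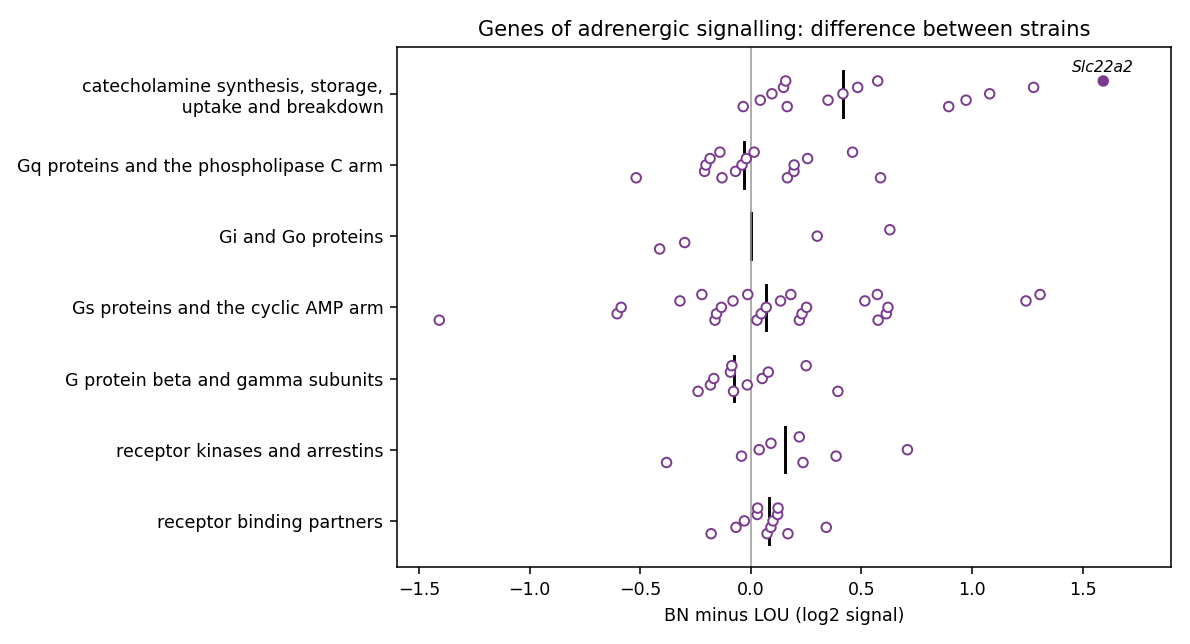
BN minus LOU difference in log2 signal for the 91 measured genes of 7 lists of adrenergic signalling, with 1 point per gene read from its brightest probe set. Filled points had a limma adjusted p below 0.05 (Slc22a2 alone), and black ticks are list medians. The medians run from −0.079 to 0.42 (the catecholamine list, which has 0.18 without BN array 3, where the receptor kinases and arrestins have 0.23). Of the 8 receptor kinases and arrestins, 3 were above background on all 10 arrays.

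Of the remaining lists, no member passed. The 11 measured G protein beta and gamma subunits had 4 positive and 7 negative differences with a median of −0.079. The 4 with the smallest p were Gng11 (0.25, adjusted p = 0.528), Gng10 (−0.24, adjusted p = 0.581), Gnb3 (−0.17, adjusted p = 0.664) and Gnb4 (−0.18, adjusted p = 0.724). The 8 receptor kinases and arrestins, which switch off activated receptors, had 6 positive and 2 negative differences with a median of 0.15. Of these 8, 3 were above background on all 10 arrays and 2 on none. With only probe sets above background in a strain, 4 remained, 2 positive and 2 negative, with a median of −0.0024. With the floor of 32, 2 were positive and 4 negative. Grk6, a receptor kinase, had −0.38 (adjusted p = 0.462) and its other probe set, never above background, had 0.85. Grk5 had 0.22 (adjusted p = 0.652), Arrb2, an arrestin, had 0.71 (adjusted p = 0.707) from signals near background, and Grk1, the kinase of the eye's rhodopsin, was above background on no array. The 12 measured binding partners of the receptors had 9 positive and 3 negative differences with a median of 0.082. Magi3, a membrane scaffold, had −0.18 (adjusted p = 0.525) by its brightest probe set, −0.033 by another, and −0.72 (adjusted p = 0.165) by one whose strains did not overlap. Utrn, which encodes utrophin, had 0.34 (adjusted p = 0.602), and Ppp1r9b and Scrib had 0.12 (adjusted p = 0.705) and 0.10 (adjusted p = 0.711).

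Of the marker lists not given above, all 7 Schwann cell markers had positive differences and 1, Mbp, was higher in BN (log2 1.73, limma adjusted p = 0.046). The other probe set of Mbp had 1.13 (adjusted p = 0.129), with strains that overlapped. Mbp lost its call in 9 of the 10 fits that left out 1 array (adjusted p up to 0.124) and without BN array 3 and LOU array 1 together (0.103). It also lost it with the floor of 32 (0.0582), with probe sets averaged per gene (0.0602) and with the replicate number as a block (0.176). No member of the other lists passed by its brightest probe set. Myh1, a myosin of skeletal muscle, had 2 other probe sets that were higher in BN (log2 1.64, adjusted p = 0.0131, and log2 1.39, adjusted p = 0.00521). Of all 15866 probe sets, 39 were called higher in BN. The remaining Myh1 probe sets did not pass, at 1.175 (adjusted p = 0.112) for the brightest, 0.64 (adjusted p = 0.336) and 0.33 (adjusted p = 0.522). The myosins listed next, Myh2 and Myh4, had 1.00 (adjusted p = 0.531) and −0.43 (adjusted p = 0.869). Myh2 was above background on 1 BN array and on no LOU array, and Myh4 on no array. The endothelial list had 4 of 8 positive (median 0.033, and −0.053 without LOU array 1 to 0.24 without LOU array 2). Skeletal muscle had 6 of 10 positive (median 0.38, with 0.23 without LOU array 2 and 0.0031 with the floor of 32). Its negative members were Myh4, Acta1, Tnnt3 and Actn3. The list of sympathetic neurons and chromaffin cells had 12 of 13 positive (median 1.01), and 10 of 13 (median 0.23) without BN array 3. Adipocytes had 5 of 7 positive (median 0.095), with medians of −0.16 without LOU array 4 to 0.39 without BN array 5. Brown adipocytes had 8 of 8 positive (median 1.08), with medians of 0.66 without BN array 1 to 1.74 without BN array 5.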

How the data were processed

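The deposited values are array intensity, 1 signal per probe set on a linear scale. Per the submitters' processing notes RMA was used, but the table spans 0 to 22219.9 and each array has a 2% trimmed mean of 200.05 to 200.06. The values were therefore treated as linear and mean-scaled, not as RMA output, and log2(signal) was computed, with the 4 values of 0 set to 0.1. The scaling is known only from the values. The test of BN minus LOU was limma's (version 3.58.1, R 4.3.3, eBayes with a constant prior, two-sided), with strain as the only term. It took in 15866 probe sets, without 57 controls, and p-values were adjusted by Benjamini-Hochberg. The fit was run on simulated data with independent normal noise and log2 changes all larger than the difference of Adra1b. That run cannot say how well a difference of the size of Adra1b's is found.

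Of the probe sets, 12783 had 1 gene symbol, 312 several and 2771 none in the annotation used here, and symbols were updated through the RefSeq table of GRCr8. List genes were read from their brightest probe set. Arrays give no counts, so each signal was set beside the background level of its array. The precision of a difference is given by its SE, which comes from the spread between arrays. Relations used exact permutations within strain (14400). For an r without a pair of arrays, the others kept their centring over all arrays of the strain and were not centred again. Receptors are named whatever their value, as are the 4 genes of each signalling list with the smallest p and the 5 genes most like each receptor. Only some markers are named, and not all of them whatever their value. Pi16 and Dpt were chosen after their values were seen, and Mbp and Myh1 had a probe set that passed. Th and Dbh are also named for BN array 3, and other probe sets beside their gene. The receptors, lists and tests were chosen with earlier results of these data known. Alternatives were other scalings, filters on dim signals, array weights, a variance trend, arrays left out, and a block for the replicate number. Python 3.11.15, pandas 2.3.3, scipy 1.17.1 and matplotlib 3.10.9 were used for summaries and figures.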

Additional observations from a re-analysis of the deposited data

Results flagged for a closer look

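Log2 values of 34 groups of 5 arrays (8 receptors and 9 marker lists in each strain) were searched for an array far from the others. The rule was a gap to its nearest neighbour of more than 0.71 of the group's range on the log2 scale. Chance flags about 1 in 20 such groups, and 3 were found, none of them a receptor. BN array 3 had a mean of 3.14 (log2, centred) for markers of sympathetic neurons and chromaffin cells. LOU array 1 had a macrophage marker mean of 1.08, and it was also the array with the highest Adrb3 signal, 702.1. LOU array 2 had an endothelial marker mean of 0.48, far above the other LOU arrays.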

How the results depend on the processing

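The number of receptors past the test was 0 and became 1, Adra1b in each case, under 8 of 22 alternatives. Its log2 difference was then −0.67 without the dimmest 40% of probe sets (adjusted p = 0.0158), with only probe sets above background in a strain (0.0199), with a floor of 32 (0.0202), with 1 probe set per gene (0.0451) and with probe sets averaged per gene (0.048). All but the floor adjust over fewer tests. It was −0.56 with 16 added to each signal (0.0374) and −0.68 with array weights (0.0325). Leaving out 1 array gave 0 to 1 receptors and differences of −0.75 to −0.62, past the test only without LOU array 1. It did not pass after median centring (0.0791), quantile normalization (0.0774), with a variance trend (0.0625) or without BN array 3 and LOU array 1 (0.06). The sign of Adra2a turned with the floor of 32 (0.095), that of Adrb3 without BN array 3 and LOU array 1 (0.11), that of Grk6 with the mean of its probe sets (0.23) and that of Arrb2 with the floor (−0.00098). For these and the other changes the cause was not tested. Pathway genes past the test numbered 1, and 0 to 2 when 1 array was left out.

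With the replicate number as a block, no receptor and 0 pathway genes passed: Adra1b had an adjusted p of 0.235 and Slc22a2 of 0.166 (log2 1.59), and 23 probe sets passed in all. Deviations of same-numbered arrays from their strain means correlated at −0.045 to 0.015. The labels do not say whether the numbers mark arrays handled together, and these correlations cannot settle it. Against the highest bacterial control, 22 of 80 receptor signals were above background, against 55, so the dim receptors limit what can be read. The median over all probe sets lay at −0.027, and at 0.024 after median centring.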

Other observations

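The 4 nearest measured named genes on each side of Adra1b on chromosome 10, a choice made after the data were seen, were read in the order of the RefSeq annotation. None of these 8 passed the test, and 6 had negative differences. Ublcp1 had a log2 difference of −0.41 (limma adjusted p = 0.285), the smallest p of the 8, and its neighbour Il12b had 0.11 (adjusted p = 0.792). On the other side Ttc1 had −0.056 (adjusted p = 0.912), and Fabp6 had 1.06 (adjusted p = 0.318) from signals below background on all 10 arrays. The remaining 4 were Pttg1 (−0.23), Ccnjl (−0.16), Ebf1 (−0.22) and Clint1 (−0.17).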
